A study of Mus musculus with 3 samples.

Results

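Extracellular nucleotides act on cells through a small set of genes, and 37 of them were sought here: the P2X and P2Y receptors for ATP, ADP, UTP and UDP sugars, the adenosine receptors, the enzymes that break nucleotides and NAD down outside the cell, and the enzymes and carriers that take up and remove adenosine. Members were chosen by gene symbol alone, as every gene whose symbol is P2rx or P2ry with a number plus 21 named genes. Of the 37, 30 had a probe set that names no other gene, out of 19938 genes measured in that way. Adora3 shares its probe set with another gene and was not used, and Adora1, Adora2a, Adora2b, Enpp1, Enpp2 and Cd38 were not analysed here, so no adenosine receptor is described.

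The samples were bone marrow-derived dendritic cells (BMDC) of C57BL/6J mice, an inbred strain. Marrow had been seeded at 2000000 cells in each well and grown for 9 days with murine GM-CSF and murine IL-4, both at 20 ng/ml. RNA of 3 samples, titled as replicates 1 to 3, was hybridised to 1 Affymetrix array each. All belong to 1 group with the same strain, cytokines and time, the labels name no treatment, genotype or sort, and no test between groups was possible. The labels do not give the animals' age or say whether the samples came from separate animals or cultures, so an SD here covers the variation among these arrays, which could be purely technical. With 3 arrays the precision is low throughout.

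ATP leaves stressed or activated cells and signals danger to their neighbours. P2X receptors are ion channels opened by ATP, whereas P2Y receptors couple to G proteins and differ in the nucleotide they bind. Ectoenzymes then degrade ATP and ADP to AMP and AMP to adenosine, which dampens many immune responses through its own receptors until it is carried into cells and deaminated or phosphorylated. In dendritic cells and macrophages these steps are known to influence migration, cytokine release and the inflammasome, the protein complex that activates caspase-1.

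Values are log2 expression. As a measure of background served 1210 probe sets for olfactory and vomeronasal receptors, genes of sensory neurons. Their 95th percentiles, 5.54, 5.54 and 5.55 in replicates 1, 2 and 3, were the limits, and a gene was called above background where all 3 of its values passed. By this rule 20 of the 30 members (66.7%) were above background, against 60.5% of all genes, so the share of members was near the background share. A further 9 members were below the limit in each array, and P2rx3 passed in 1 array. Probe sets bind with different strength, so the call is coarse, and levels are not compared between genes. In 11 of the 30 members all arrays carried the same number down to its last decimal, which was so in 57.1% of all genes. An SD of 0 is therefore no measure of precision.

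**Figure D1:**
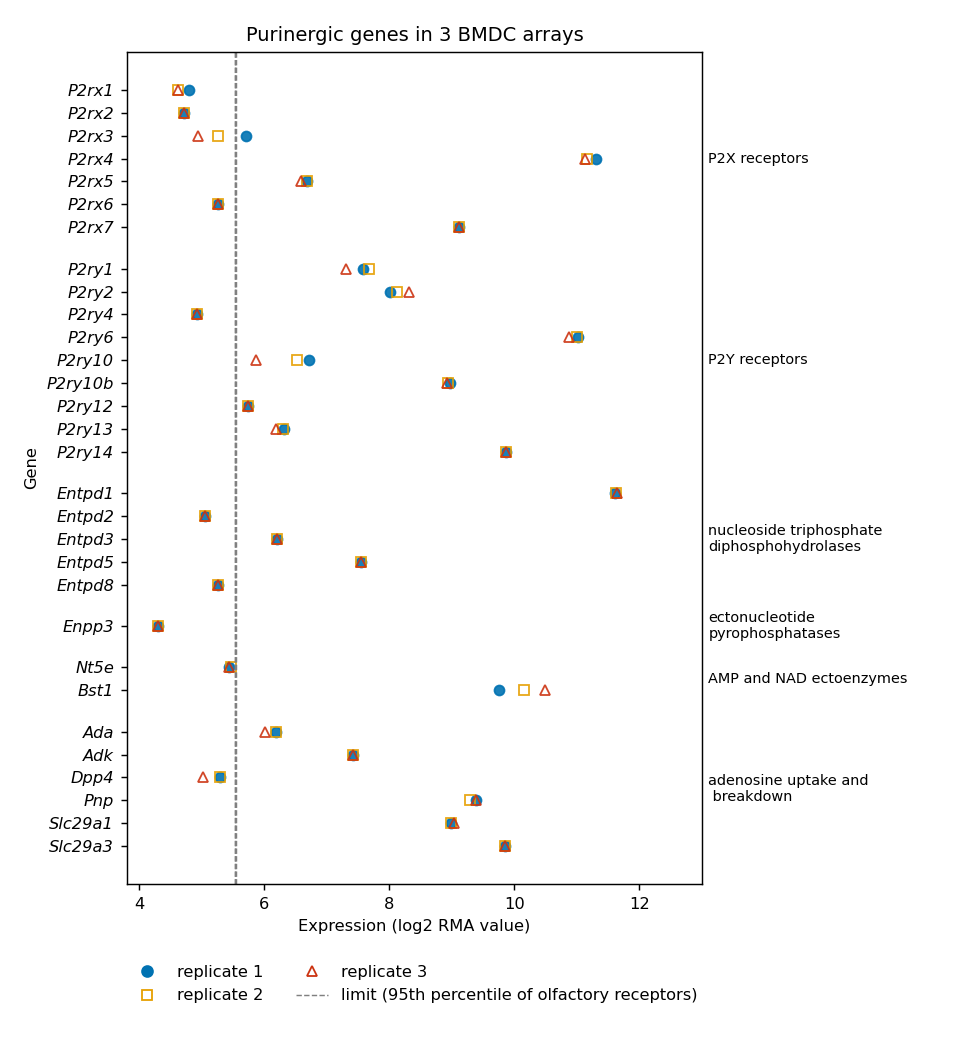
Log2 expression of the 30 measured genes (rows, grouped by role) in the 3 BMDC arrays; each symbol is 1 array and the dashed lines are the background limits of the arrays, at 5.54 to 5.55. The 20 genes above background have all 3 symbols to the right of the lines, the symbols of P2rx3 lie on both sides, and most genes have symbols on top of each other.

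Of the 7 P2X channel genes, P2rx4, P2rx5 and P2rx7 were above background. P2rx4, whose channel sits largely on lysosomes of macrophages and microglia, had 11.31, 11.17 and 11.12 in replicates 1, 2 and 3. P2rx7, whose channel needs high ATP and is known to trigger potassium loss and the inflammasome, had 9.11 in each array. C57BL/6 mice carry an amino acid variant of P2X7 that is known to weaken its pore, which expression values do not show. P2rx5 had 6.68, 6.68 and 6.58. All 3 genes lay above the limit in each array, and the widest span among them was 0.18, in P2rx4. P2rx1, a channel of platelets and smooth muscle, had 4.80, 4.63 and 4.63. P2rx2, known from sensory neurons, had 4.72 in each array, and P2rx6 had 5.26 in each. These 3 genes were below the limit in each array.

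P2rx3, a channel of pain-sensing neurons, was the member that crossed the limit. Its probe set with the highest mean had 5.70, 5.26 and 4.94 in replicates 1, 2 and 3, so replicate 1 was above the limit and the others below it. P2rx3 was also the only member with a second probe set of its own, and that one had 5.10 in each array. The 2 probe sets thus differed in whether any array passed.

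P2rx7 and P2rx4 are direct neighbours among the protein-coding genes of chromosome 5 in the RefSeq table, and both were above background. The 250 bases before a start of each gene are shown because the pair lies side by side, with 13 CG pairs in the window of P2rx4 and 6 in that of P2rx7. Sequences are from RefSeq on GRCm38.p6 and run 5′ to 3′ toward the gene, and capitals mark GGGCGG (bound by Sp1) or its reverse complement and GAGGAAG (a core bound by the myeloid factor PU.1) or its reverse complement.
P2rx7, chr5:122643677-122643926, plus strand: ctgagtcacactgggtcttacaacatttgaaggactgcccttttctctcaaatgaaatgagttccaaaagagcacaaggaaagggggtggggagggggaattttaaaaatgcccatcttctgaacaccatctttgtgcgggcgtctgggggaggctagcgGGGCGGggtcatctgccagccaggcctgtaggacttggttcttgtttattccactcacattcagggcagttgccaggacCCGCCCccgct
P2rx4, chr5:122707294-122707543, plus strand: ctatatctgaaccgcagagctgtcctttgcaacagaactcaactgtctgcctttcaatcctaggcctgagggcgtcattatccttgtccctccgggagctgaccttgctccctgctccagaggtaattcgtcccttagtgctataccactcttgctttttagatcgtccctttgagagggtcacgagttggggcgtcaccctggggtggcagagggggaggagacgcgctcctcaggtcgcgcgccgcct
GGGCGG occurred 2 times in the P2rx7 window, once on each strand, and GAGGAAG in neither.

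Of the 9 P2Y receptor genes, 8 were above background. P2ry6, the receptor for UDP that is known to promote phagocytosis in microglia, had 11.02, 11.01 and 10.87 in replicates 1, 2 and 3. P2ry14, the receptor for UDP-glucose and other UDP sugars, had 9.86, 9.86 and 9.87. P2ry2, which binds ATP and UTP and draws phagocytes toward dying cells, had 8.02, 8.12 and 8.32. P2ry14 spanned 0.0082 between the arrays and P2ry6 0.15, and P2ry2 was highest in replicate 3 by 0.30 over replicate 1. P2ry2 and P2ry6 are direct neighbours on chromosome 7. They went opposite ways in replicate 3, P2ry2 being highest and P2ry6 lowest there.

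The 3 receptors for ADP were all called, though not equally firmly. P2ry1, which couples to Gq and calcium release, had 7.58, 7.68 and 7.31 and so was lowest in replicate 3. P2ry13, a Gi-coupled receptor, had 6.31, 6.29 and 6.18. P2ry12, the Gi-coupled receptor of platelets and microglia, had 5.75 in each array, 0.20 above the highest of the limits. Under a stricter limit, the 99th percentile of the sensory receptors at 6.24 to 6.33 or the 95th percentile of 25 measured genes of other tissues, at 6.29 to 6.33, neither P2ry12 nor P2ry13 was above background. Of the 25 genes of other tissues, 4 were themselves above background under the limit used here, so a call close to that limit is weak. The values of P2ry12 were moreover shared to the last digit by 23 probe sets of the array, its own included. P2ry4, a receptor for UTP, lay below the limit at 4.92 in each array. P2ry12 and P2ry13 are neighbours on chromosome 3, with P2ry14 1 gene further on, so this cluster held both a firmly called receptor and the weakly called ones.

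P2ry10 and P2ry10b, which neighbour each other on the X chromosome, carry a P2Y name but P2ry10 is known as a receptor for lysophospholipids in lymphocytes. P2ry10b had 8.97, 8.94 and 8.93 in replicates 1, 2 and 3. P2ry10 had 6.71, 6.53 and 5.86, so replicate 3 stood lowest, 0.31 above its limit. At the 99th percentile, replicate 3 of P2ry10 was below the limit. The windows of the pair are printed because the genes lie side by side and differed in their spread. Of their starts, each is the one whose 250 upstream bases hold GAGGAAG, drawn as above with the motif or its reverse complement in capitals.
P2ry10, chrX:107089083-107089332, plus strand: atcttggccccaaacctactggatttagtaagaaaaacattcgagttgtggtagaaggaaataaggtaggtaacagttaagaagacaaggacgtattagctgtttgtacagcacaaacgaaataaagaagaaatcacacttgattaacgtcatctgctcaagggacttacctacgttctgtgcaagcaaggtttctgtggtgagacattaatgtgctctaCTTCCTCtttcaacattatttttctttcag
P2ry10b, chrX:107149365-107149614, plus strand: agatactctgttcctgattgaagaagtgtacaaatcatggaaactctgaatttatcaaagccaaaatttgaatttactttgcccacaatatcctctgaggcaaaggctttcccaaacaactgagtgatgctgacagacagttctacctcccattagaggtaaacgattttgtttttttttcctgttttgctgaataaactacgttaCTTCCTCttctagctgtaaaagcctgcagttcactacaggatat
Both windows hold the motif once, beginning 30 bases before the start in P2ry10 and 44 bases before it in P2ry10b. GAGGAAG stood in 10.6% of all 32851 windows of this length, which unlike the printed ones were not picked for holding it. Each gene has other starts in the table, 2 in all for P2ry10 and 3 for P2ry10b, which lacked the motif.

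Over all members, 25 of the 30 matched the promoter table, with 42 windows that partly overlap where a gene has several starts. GAGGAAG was in 8 of the 42, and GGGCGG in 16, against 32.7% of all windows. ACGTG, the core bound by hypoxia-inducible factors, was in 10, against 16.6% of all. TTC and GAA with 4 bases between them, the spacing read by STAT6 downstream of IL-4, was in 0 of 42, against 5.85% of all. TATAAA was in 5 of 42, against 12.4% of all. Both strands were searched for each motif. These are matches of letters in a short window and were not tested.

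Genes of the nucleoside triphosphate diphosphohydrolase family, which holds enzymes of the cell surface and of internal membranes, were called in 3 of 5 cases. Entpd1, which encodes CD39, the enzyme that takes ATP and ADP down to AMP on many leukocytes, had 11.60, 11.62 and 11.65 in replicates 1, 2 and 3. Entpd5, an enzyme of the endoplasmic reticulum that hydrolyses UDP, had 7.55 in each array. Entpd3 had 6.20, 6.20 and 6.21, above the limit used here and below the 2 stricter ones. Entpd1 was thus called with a spread of 0.04 between arrays. Entpd2, which prefers ATP over ADP, lay below the limit at 5.05, and Entpd8, known from liver, at 5.26. Entpd8 and P2rx6 carried the same 3 values to the last digit, which 120 probe sets of the array share, so neither value is particular to its gene. The values of P2ry4 were likewise those of 91 probe sets, of P2rx2 29, of Entpd2 14, of Adk 6 and of Enpp3 3, each count including the gene's own.

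The next step had no member called above background. Nt5e, which encodes CD73, the enzyme that turns AMP into adenosine, had 5.44, 5.46 and 5.44 and lay just below the limits. Against the 90th percentile of the sensory receptors Nt5e was above background, so its call rests on the limit chosen. Enpp3, a pyrophosphatase that marks activated basophils and mast cells, had 4.29 in each array. Of 8 mast cell and basophil markers 4 were above background, against 60.5% of all genes, and Fcer1a and Ms4a2 were below the limit in each array. Alpl and Acpp, phosphatases that can also release adenosine from AMP, had 5.73 and 8.52 in each array and were above background, Alpl not under the stricter limits. They are genes of the pathway and no members. Cd38, the neighbour of Bst1 on chromosome 5 and the other NAD ectoenzyme, was not analysed here.

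Bst1, which encodes CD157, a surface enzyme that acts on NAD, had 9.76, 10.15 and 10.49 in replicates 1, 2 and 3, a mean of 10.13 ± 0.37 (SD, n = 3). It was above background in each array, and replicate 3 exceeded replicate 1 by 0.73, or 1.66-fold. CD157 is also known from neutrophils and marrow stroma. Of 8 neutrophil markers 3 were above background in all arrays, and Ly6g, Lcn2, Retnlg and Cxcr2 in replicates 1 and 2 only. The sum of all 8 levels ran from 43.4 in replicate 3 to 51.0 in replicate 1. Of 8 stromal markers 3 passed in all arrays, Sparc in replicates 1 and 3, and Dcn, Lox and Pdgfrb in replicate 1 only. These 8 levels summed to between 44.7 in replicate 2 and 53.5 in replicate 1. The part of either marker list in the span of Bst1 was not tested.

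Genes that take up and remove adenosine were above background in 5 of 6 cases. Slc29a1, the carrier that moves nucleosides across the cell surface, had 8.98, 8.98 and 9.04 in replicates 1, 2 and 3. Slc29a3, a carrier of lysosomes, had 9.85 in each array. Both carriers were called under each limit. Pnp, which splits inosine and guanosine, had 9.39, 9.28 and 9.38, and Adk, the kinase that returns adenosine to AMP, had 7.41 in each array. Ada, adenosine deaminase, had 6.19, 6.19 and 6.01, which was above the limit here but not above the stricter limits. Dpp4, the peptidase CD26, which binds adenosine deaminase on human cells, was below the limit at 5.29, 5.29 and 5.02.

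The members above background differed in how far the arrays lay apart. Of the 20, 5 had 3 identical values, against 46.5% of all genes above background, a further 6 spanned under 0.1, and the median span was 0.073 against 0.0096 over all genes above background. P2ry1 spanned 0.37 and P2ry2 0.30. Only P2ry10 (0.85, 1.80-fold) and Bst1 (0.73) spanned more than 0.5, which is 2 of 20 against 2.61% of all genes above background. The spans are wide in these 2 genes, but the arrays belong to 1 group, so no test bears on them. Without replicate 3 neither gene spanned more than 0.5, and without replicate 1 only P2ry10 did.

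Replicate 3 was the lowest of the 3 for 8 of the 20 members and the highest for 6. Among all genes above background it was lowest in 20.2% and highest in 19.4%. Genes with 3 identical values count in these shares but have no lowest array. Without them replicate 3 was lowest for 8 of 15 members and for 2443 of 6456 genes. Relative to each gene's mean, the average deviation of the 20 members was 0.011, 0.017 and -0.028 in replicates 1, 2 and 3, and over all genes above background it was 0.0077, 0.0019 and -0.0096. Single members went opposite ways, as P2ry10 and Bst1 did.

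**Figure D2:**
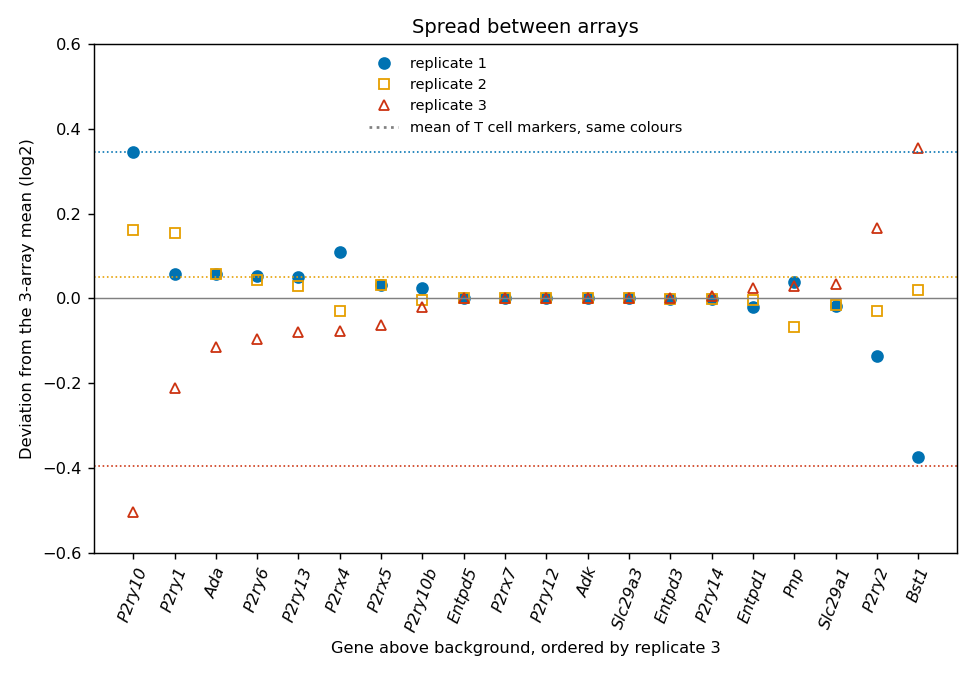
Difference between each array and the mean of all 3 (log2, vertical axis) for the 20 genes above background (horizontal axis, ordered by replicate 3); each symbol is 1 array, and dotted lines give the mean deviation of 8 T cell markers in the same colours. P2ry10 is lowest in replicate 3 at -0.50, Bst1 is highest there at 0.36, and most other genes lie near 0.

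Markers of other cells differed between the same arrays. All 8 measured T cell markers were above background and 7 of them were lowest in replicate 3. Their summed level ran from 56.8 in replicate 3 to 62.7 in replicate 1, with mean deviations of 0.34, 0.05 and -0.40. Of 8 NK markers 6 were above background, all 6 lowest in replicate 3, while Ncr1 and Klrd1 lay below the limit. Sums over all 8 ran from 56.9 to 62.6. All 9 measured cell cycle genes were above background and 8 of them were lowest in replicate 3, with mean deviations of 0.33, 0.07 and -0.40. Mast cell and basophil markers, 4 of 8 above background, had mean deviations of 0.17, 0.30 and -0.46 over those 4, of which 3 were lowest in replicate 3. The megakaryocyte markers, 4 of 4 above background, had 0.27, 0.08 and -0.35. Only 2 of these, Pf4 and Ppbp, differed between arrays and were lowest in replicate 3, whereas Itga2b and Gp9 had the same value in each. P2ry10 shared with these 5 lists a lowest level in replicate 3. That was not particular to them. Mean deviations were also lowest there for macrophage (-0.08), neutrophil (-0.10), eosinophil (-0.26), B cell (-0.06) and endothelial (-0.07) markers above background. For dendritic cell, stromal and erythroid markers they were not. P2ry10 was highest in replicate 1, whereas the mast cell and basophil list was highest in replicate 2. The part of the lists in the value of P2ry10 was not tested. In RNA of a mixed culture, fewer cells of a type and less RNA per cell cannot be told apart. Of the dendritic cell markers 8 of 11 were above background, among them Itgax and H2-Ab1, and Flt3, Xcr1 and Cd209a were not. Macrophage markers passed in 6 of 8 cases. Both shares are near the 60.5% of all genes, so the counts alone do not set either cell type apart. B cell markers passed in 2 of 5 cases, with Cd79a and Ms4a1 below the limit. The megakaryocyte markers, platelet lineage genes, passed in 4 of 4 cases, with Gp9 close to the limit at 5.61. P2rx1 and P2ry12, which platelets also use, were below the limit and just above it.

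The genes around the receptors were mostly above background as well, as were 60.5% of all genes. For ATP release 9 of 12 genes were above background, including the channel genes Panx1 (7.55 in each array) and Panx2 (6.92, 6.91 and 6.87), but not Panx3 (4.68 in each). The gap junction gene Gja1 had 5.65, 4.87 and 4.87 and so was above its limit in replicate 1 only. Of the genes downstream of P2X7, 10 of 11 were above background. Nlrp3, the inflammasome sensor, had 7.10, 7.10 and 7.17, its adaptor Pycard had 9.16 in each array and Casp1 9.07 in each. Il1b, the cytokine that caspase-1 matures, had 6.61, 6.23 and 6.04, lowest in replicate 3, and Il18 lay below the limit at 4.84 in each array.

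The signalling partners of the P2Y receptors were called in 9 of 12 cases for Gq and calcium. Gnaq had 9.82 in each array and Gna11 7.25 in each, whereas Gna14 lay below the limit at 5.33. For Gs, Gi and cyclic AMP it was 14 of 18. Gnai2, a Gi subunit of leukocytes, had 11.63, 11.69 and 11.69, and Gnai3 had 9.61 in each array, while Gnai1 lay below the limit at 4.77.

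Other ectonucleotidases and nucleoside carriers passed in 11 of 15 cases, with Entpd4 at 8.71, 8.77 and 8.64, Entpd6 at 7.45, 7.39 and 7.39 and Entpd7 at 8.14, 8.13 and 8.13. Purine salvage and breakdown inside the cell passed in 19 of 20 cases. Hprt, which recycles hypoxanthine and guanine, had 9.47, 9.45 and 9.49, Aprt had 8.07 in each array and Xdh, the oxidase that makes uric acid, had 10.62, 10.51 and 10.42. Ak4, a mitochondrial adenylate kinase, spanned most in this list, with 8.39, 8.80 and 9.20 and so highest in replicate 3. Its order over the arrays was that of Bst1, but also of the members P2ry2, Entpd1 and Slc29a1 and of other listed genes such as Ak3. NAD synthesis and use passed in 11 of 15 cases, but in 7 of 15 under either stricter limit, with Nampt, which makes NAD from nicotinamide, at 10.83, 10.79 and 10.81, Nmnat1 at 7.03 in each array and Nmnat2 at 6.04 in each. Read against 60.5% of all genes, the shares of these 7 lists ran from 73.3% to 95%, and no list was tested.

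**Figure D3:**
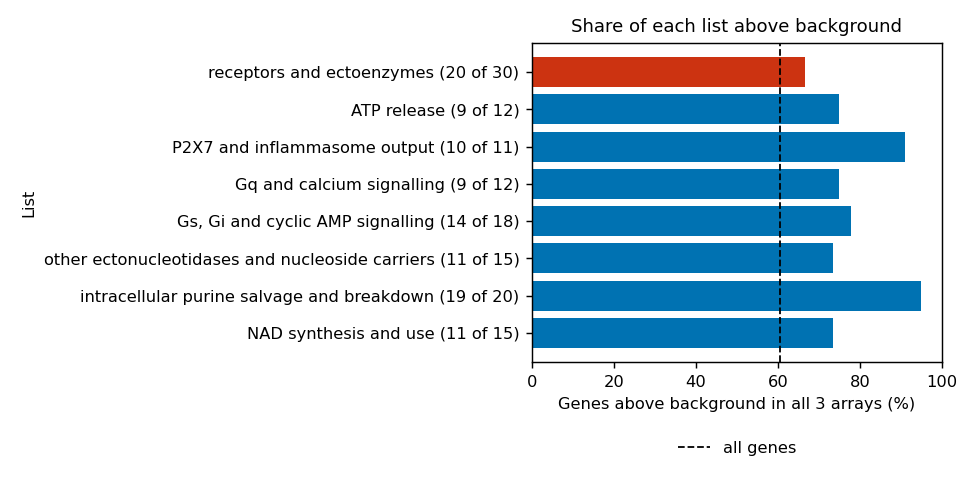
Percent of measured genes above background in all 3 arrays (horizontal axis, bars from 0) for the 30 receptors and ectoenzymes and for 7 lists of neighbouring steps, with counts beside each name; the dashed line is the share of all genes, 60.5%. The members stand at 66.7% and the 7 lists between 73.3% and 95%.

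The calls of members depended on the limit. Under all 9 other settings 15 members remained above background: P2rx4, P2rx5, P2rx7, P2ry1, P2ry2, P2ry6, P2ry10b, P2ry14, Entpd1, Entpd5, Bst1, Adk, Pnp, Slc29a1 and Slc29a3. Of these settings only the stricter limits, which lie close together, could remove a call. The others relax the rule or leave it unchanged for the called members. A set of 7 was above it under none, namely P2rx1, P2rx2, P2rx3, P2ry4, Entpd2, Enpp3 and Dpp4. The remaining 8 changed their call with the percentile or with the reference genes. Leaving out 1 array keeps the limits and asks for fewer passes, so it could not remove a call. With P2rx3 passing in 1 array only, no member could gain a call either, so this setting does not measure how the calls depend on the arrays.

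**Figure D4:**
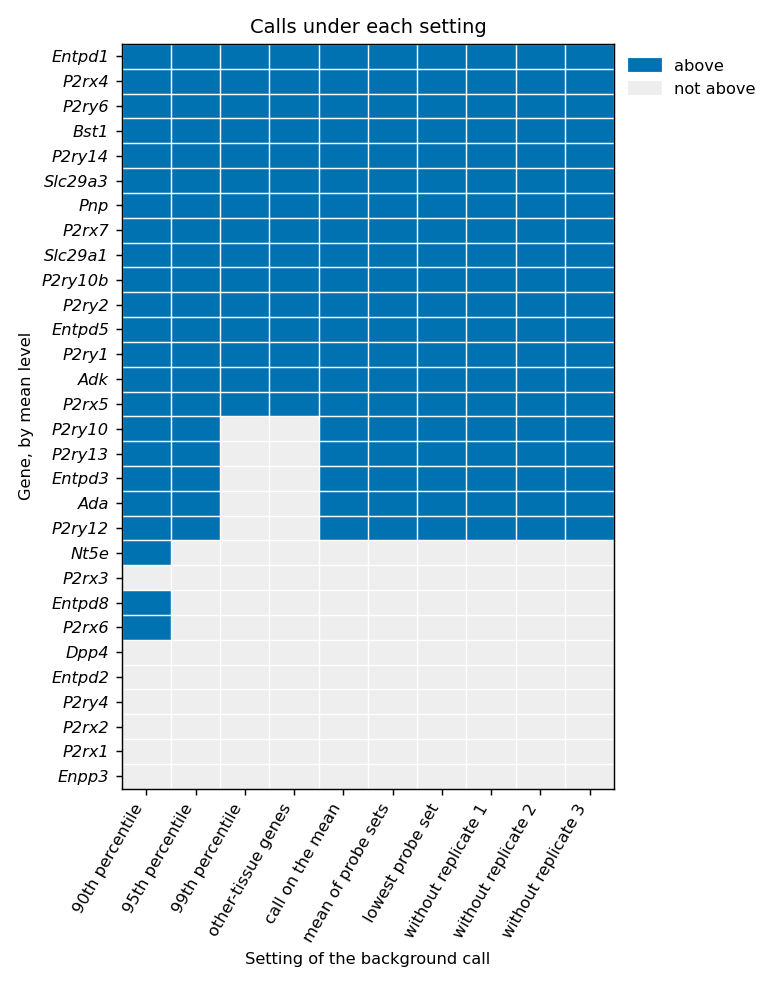
Call of each of the 30 genes (rows, ordered by mean level) under the limit used here and 9 other settings (columns); blue is above background and grey is not. The 15 genes at the top are blue in every column, and P2ry10, P2ry13, Entpd3, Ada and P2ry12 turn grey under the 2 stricter limits.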

How the data were processed

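The deposited log2 values of 3 arrays came from RMA, as the submitters' processing notes name it. This method corrects background, quantile normalizes the arrays and summarizes probes by median polish. No software version or build is given in the sources used here. The array medians were 5.91, 5.91 and 5.91, and the values were not centred.

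Of 35556 probe sets, the platform annotation pairs 21789 with 1 gene and 1621 with several, and has no entry for 12146. Only those with 1 gene were used, and each of the 19938 genes took its probe set with the highest mean. All 30 members matched a current RefSeq entry by Entrez identifier. Calls, spans and deviations were computed with Python 3.11.15, pandas 2.3.3 and numpy 2.4.6. Calls and spans, but not deviations, were checked on simulated data whose genes lay clearly above or below the limit.

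With 1 group no test was run. Every member is named. Of each pathway list the text names the first 3 measured genes and those spanning over 0.5, and Alpl, Acpp, Il18 and some markers were added for context. Members, lists and motifs were chosen with earlier results of these data known. Alternatives covered the limit, the call on the mean, the probe set per gene and leaving out each array.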

Additional observations from a re-analysis of the deposited data

How the results depend on the processing

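The count of 20 members above background was 15 against the 99th percentile of the sensory receptors, 15 with a limit from genes of other tissues, 23 at the 90th percentile and 19 without P2ry10b, an alternative chosen after seeing the data. With the call on the mean, with either other choice of probe set or without any 1 array it was 20, but none of these settings could remove a call from the 20. The share of all genes fell with it, to 46.2% at the 99th percentile. The 83 genes of the 7 pathway lists above background ranged from 73 to 92, and within them NAD synthesis and use fell from 11 to 7 under both stricter limits. The 2 members spanning over 0.5 became 4 with a threshold of 0.3 and 0 with a threshold of 1, and leaving out 1 array gave 0 to 2. The mean deviations of the members had no stable sign in replicates 1 and 3, while in replicate 2 they ranged from 0 to 0.023. At the 99th percentile replicate 1 turned from 0.011 to -0.016 and replicate 3 from -0.028 to 0.0097, and without replicate 3 that of replicate 1 was -0.0033. No paired analysis was possible because the labels give 1 group. Groups of 3 arrays are too small for a check for outlying samples.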
